A study of Rattus norvegicus with 16 samples.

Results

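Cells that face an acid medium move protons, sodium and lactate across their membranes, and the genes described here encode 5 sodium-proton exchangers (Slc9a2, Slc9a3, Slc9a7, Slc9a8 and Slc9a9), 2 monocarboxylate transporters that carry lactate together with a proton (Slc16a1 and Slc16a3), and Bsg, which encodes their chaperone basigin. They were picked by name as exchangers of the cell surface and of organelles, lactate carriers and their partner. Only genes present among the 32623 of the count table were kept, which left these 8, and earlier results of these data were known. RNA was sequenced from 2 rat kidney cell lines, the epithelial line NRK-52E and the fibroblast line NRK-49F. Both lines were co-cultured without contact, with NRK-52E on filter inserts and NRK-49F on the floor of the wells, so that they shared the medium while the filter kept the cells apart. After 24 h without serum, the cultures received medium of pH 7.4, the control, or of pH 6.0, the acidosis condition, for 48 h. Each of the 4 groups of cell line and pH had 4 libraries. The comparisons ask how acidosis changed the expression of these genes in each line and how the lines differed at each pH. They also ask whether the pH effect differed between the lines. Each line grew on its own support, so effects of line and of growth on filter or well floor cannot be told apart.

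The 16 libraries held between 16201084 and 34784862 counted fragments. Expression is given as fragments per 1000000 counted (FPM) after scaling of the libraries by the trimmed mean of M values. Fold changes are on the log2 scale with their standard error (SE), with 4 libraries in each group. A gene was called changed when its Benjamini-Hochberg adjusted p over all genes tested was under 0.01 in both edgeR and DESeq2. The deposited labels do not say whether the libraries of a group came from separate cultures, so each p-value measures spread between these libraries.

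Sodium-proton exchangers use the inward sodium gradient, or the ion gradients of organelles, to trade sodium or potassium for protons. NHE2 and NHE3 (Slc9a2 and Slc9a3) act at the apical membrane of epithelia, NHE7 and NHE8 (Slc9a7 and Slc9a8) are found in the Golgi network, with NHE8 also at the apical membrane of the proximal tubule, and NHE9 (Slc9a9) acts in recycling endosomes. MCT1 (Slc16a1) carries lactate, pyruvate and ketone bodies in either direction, MCT4 (Slc16a3) exports lactate from glycolytic cells, and basigin brings both to the plasma membrane.

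Marker genes were used to check the labels. Of the fibroblast markers, Pdgfra averaged 391.9 FPM in NRK-49F at pH 7.4 and 367.8 FPM at pH 6.0, and did not exceed 0.287 FPM on average in NRK-52E. Col1a1, Fn1, Vim, Lum and Postn were also called higher in NRK-49F at both pH values, with means at pH 7.4 of 6205, 10760, 7108, 8.27 and 119.5 FPM in NRK-49F and 23.6, 81.2, 683.8, 0.0340 and 45.0 FPM in NRK-52E. Pdgfrb was called higher at pH 7.4 only, with 87.2 FPM in NRK-49F and 46.4 FPM in NRK-52E. Dcn was not called at pH 7.4, with 0.470 FPM in NRK-49F and 0.718 FPM in NRK-52E, and Thy1 had no fragment in any library. Col3a1 went the other way, with 6221 FPM in NRK-52E and 458.0 FPM in NRK-49F at pH 7.4 and 2630 and 53.9 FPM at pH 6.0. The epithelial genes Cdh1 and Ocln averaged 1.62 and 41.2 FPM in NRK-52E at pH 7.4 and had no fragment in NRK-49F at that pH. At pH 6.0 Ocln still separated the lines, with 9.67 FPM in NRK-52E and 0.0992 FPM in NRK-49F, whereas Cdh1 averaged 0.315 and 0.230 FPM and its libraries overlapped. Krt8 was higher in NRK-49F at pH 7.4, with 847.7 FPM against 430.4 FPM in NRK-52E, and lower at pH 6.0, with 206.0 FPM against 315.5 FPM. Krt19 averaged 2.49 FPM in NRK-52E and 2.27 FPM in NRK-49F at pH 7.4 and 0.825 and 1.115 FPM at pH 6.0, and the other 6 epithelial genes did not exceed 0.137 FPM on average in any group. Of the proximal tubule genes, Slc34a1 and Hnf4a had no fragment in NRK-52E at either pH, while in NRK-49F Slc34a1 averaged 0.466 and 0.4405 FPM and Hnf4a 0.0450 and 0.0156 FPM at pH 7.4 and pH 6.0. Slc22a6 had no fragment in NRK-52E at pH 7.4 and 1.47 FPM at pH 6.0, against 0.0736 FPM in NRK-49F. Lrp2 averaged 0.634 FPM in NRK-52E and 0.0126 FPM in NRK-49F at pH 7.4, and 0.0118 and 0.0159 FPM at pH 6.0. Aqp1 averaged 34.4 FPM in NRK-52E and 21.8 FPM in NRK-49F at pH 7.4, and 26.4 and 41.6 FPM at pH 6.0. Anpep averaged 28.5 and 30.1 FPM at pH 7.4 and 1.25 and 10.9 FPM at pH 6.0 in the same order, and Ggt1 1.53 and 111.9 FPM at pH 7.4 and 1.41 and 413.2 FPM at pH 6.0. Cubn was called higher in NRK-49F at pH 7.4, with 2.54 FPM against 0.804 FPM in NRK-52E, and not at pH 6.0, with 1.395 and 1.001 FPM. Slc5a2 was not called at pH 7.4, with 0.813 FPM in NRK-52E and 0.978 FPM in NRK-49F, and averaged 0.06545 and 0.105 FPM at pH 6.0, and Slc13a3 averaged 0.0678 and 0.0126 FPM at pH 7.4 and 0.412 and 0.259 FPM at pH 6.0. Among macrophage and endothelial genes, Ptprc, Adgre1 and Kdr had no fragment in any library, while Cd68 averaged 81.2 FPM in NRK-49F at pH 7.4 and 242.7 FPM at pH 6.0, and 1.72 and 2.38 FPM in NRK-52E. Cdh5, from the same list, was detected at a low level in every group. Its control means were 0.364 FPM (NRK-49F) and 0.1145 FPM (NRK-52E), and its acidosis means 0.132 and 0.0527 FPM. The NRK-49F control libraries held 13, 0, 9 and 3 Cdh5 fragments.

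Slc9a2 and Slc9a7 had 0 fragments in all 16 libraries. Slc9a3, which encodes the main sodium-proton exchanger of the apical proximal tubule, had 3 fragments in total, 1 in replicate 4 of NRK-52E at pH 7.4 and 2 in replicate 4 of NRK-49F at pH 7.4. A count of 0 allows up to 3 fragments, or between 0.0938 and 0.199 FPM depending on the library. This floor covers counting error only. Transcripts of these 3 genes were therefore not detectable above that level in either line at either pH, and no fold change was computed for them. The other 5 genes passed the expression filter in every comparison.

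Slc9a8, the exchanger of the Golgi and of the apical membrane, was detected in every library, with 93 to 666 fragments. In NRK-52E the 4 libraries had 14.3, 18.6, 19.3 and 15.7 FPM at pH 7.4 and 15.1, 29.9, 23.7 and 9.69 FPM at pH 6.0. In NRK-49F they had 11.7, 13.9, 6.12 and 16.52 FPM at pH 7.4 and 13.6, 11.01, 10.9 and 15.3 FPM at pH 6.0. The ranges of all 4 groups overlapped, and within NRK-52E the pH 6.0 libraries held both the lowest and the highest value. The log2 fold change at pH 6.0 against pH 7.4 was 0.18 (SE 0.28, edgeR adjusted p = 0.593) in NRK-52E and 0.06 (SE 0.24, edgeR adjusted p = 0.852) in NRK-49F. Against NRK-52E, NRK-49F had a log2 fold change of −0.57 (SE 0.24, edgeR adjusted p = 0.0488) at pH 7.4 and −0.60 (SE 0.29, edgeR adjusted p = 0.0804) at pH 6.0. The last difference was called when replicate 4 of NRK-52E at pH 6.0 was left out, with a log2 fold change of −0.83. By mean level the order was NRK-52E at pH 6.0 (19.6 FPM), NRK-52E at pH 7.4 (17.0), NRK-49F at pH 6.0 (12.7) and NRK-49F at pH 7.4 (12.04), and no neighbours in this order differed beyond the spread between libraries. The sign of the small NRK-52E value was not stable, since it was −0.02 with scaling by total counts and −0.11 without replicate 2 at pH 6.0. The pH effects of the lines differed by −0.11 (SE 0.41, edgeR adjusted p = 0.848).

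Slc9a9, the exchanger of recycling endosomes, fell at pH 6.0 in both lines. NRK-52E had 4.17, 4.34, 4.44 and 4.09 FPM at pH 7.4 and 0.43, 0.63, 0.45 and 0.56 FPM at pH 6.0. NRK-49F had 11.2, 10.51, 10.6 and 8.82 FPM at pH 7.4 and 0.93, 1.39, 0.62 and 1.31 FPM at pH 6.0. Every library at pH 6.0, of either line, lay below every library at pH 7.4. The log2 fold change was −3.04 in NRK-52E (SE 0.22, edgeR adjusted p = 9.99e-07), an 8.23-fold lower level. In NRK-49F it was −3.31 (SE 0.25, edgeR adjusted p = 1.05e-06), a 9.89-fold lower level. Fewer fragments lie behind the low values, with 7 to 14 per library in NRK-52E and 19 to 42 in NRK-49F. In RNA from whole cultures, less transcript in each cell and fewer cells that express the gene cannot be told apart. The interaction of cell line and pH was −0.25 (SE 0.35, edgeR adjusted p = 0.577), so the falls of both lines did not differ beyond their error. NRK-49F had the higher level at pH 7.4, with a log2 fold change of 1.18 (SE 0.13, edgeR adjusted p = 8.45e-06) and no overlap. At pH 6.0 the difference of 1.02 (SE 0.37, edgeR adjusted p = 0.0251) was not called, and the ranges of the lines overlapped, with p = 0.0571 in a two-sided exact permutation test. That difference was called when all 16 libraries were fitted together. The order from high to low was NRK-49F at pH 7.4 (10.3 FPM), NRK-52E at pH 7.4 (4.26), NRK-49F at pH 6.0 (1.06) and NRK-52E at pH 6.0 (0.518), and only the last neighbours overlapped.

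Slc16a1, which encodes MCT1, moved in opposite directions in the lines. In NRK-52E it had 417.9, 441.0, 432.4 and 454.3 FPM at pH 7.4 and 291.8, 353.3, 340.2 and 273.1 FPM at pH 6.0. In NRK-49F the values were 109.9, 93.1, 61.6 and 72.0 FPM at pH 7.4 and 151.3, 151.3, 192.0 and 180.1 FPM at pH 6.0. Each pair of groups was fully separated, with p = 0.0286 in the two-sided exact permutation test, the smallest value that 4 against 4 libraries allow. Slc16a1 fell in NRK-52E by 0.49 on the log2 scale (SE 0.09, edgeR adjusted p = 7.22e-04), a 1.41-fold lower level. It rose in NRK-49F with a log2 fold change of 0.99 (SE 0.16, edgeR adjusted p = 2.46e-04), which is 1.98-fold. The interaction was 1.49 (SE 0.20, edgeR adjusted p = 1.00e-05), a 2.81-fold difference between the pH effects. NRK-52E held more Slc16a1 at both pH values, and the distance between the lines was larger at pH 7.4. NRK-49F was lower by a log2 fold change of −2.46 at pH 7.4 (SE 0.15, edgeR adjusted p = 4.89e-08), or 5.50-fold. At pH 6.0 the log2 fold change was −0.88 (SE 0.12, edgeR adjusted p = 3.35e-05), or 1.84-fold. The order was NRK-52E at pH 7.4 (436.4 FPM), NRK-52E at pH 6.0 (314.6), NRK-49F at pH 6.0 (168.7) and NRK-49F at pH 7.4 (84.2), with all neighbours separated.

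The column names of the libraries carry a second number whose meaning was not given, 21 or 22 in NRK-52E and 20 or 21 in NRK-49F, with 2 libraries of each pH at each number. Within these subsets Slc16a1 kept its direction in both lines. Its log2 fold change in NRK-52E was −0.46 at number 21 and −0.55 at number 22, neither of them called with 2 libraries against 2. In NRK-49F it was called at both numbers, with 0.58 at number 20 and 1.46 at number 21. Slc9a9 gave −3.01 and −3.08 in NRK-52E and −3.34 and −3.25 in NRK-49F at number 21 and at the other number, all of them called.

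Slc16a3, which encodes the lactate exporter MCT4, was expressed at a low level in both lines, with 9 to 60 fragments per library. NRK-52E had 2.20, 1.97, 1.95 and 2.05 FPM at pH 7.4 and 0.55, 0.49, 0.57 and 0.89 FPM at pH 6.0. NRK-49F had 1.89, 1.77, 2.63 and 2.37 FPM at pH 7.4 and 1.20, 0.86, 1.46 and 1.09 FPM at pH 6.0. In each line the pH 6.0 libraries all lay below the pH 7.4 libraries. The log2 fold change in NRK-52E was −1.71 (SE 0.27, edgeR adjusted p = 1.95e-04), a 3.26-fold lower level, and the call was lost within number 21 (−2.03) and within number 22 (−1.46), each with 2 libraries against 2. In NRK-49F the log2 fold change was −0.90 (SE 0.27, edgeR adjusted p = 0.0137), which was not called in the comparison of that line alone and was called when all 16 libraries were fitted together. The interaction of 0.82 (SE 0.36, edgeR adjusted p = 0.0685) was not called, so a difference between the pH effects was not shown. The lines had nearly equal levels at pH 7.4, with a log2 fold change of 0.00 (SE 0.20, edgeR adjusted p = 0.995). At pH 6.0 NRK-49F against NRK-52E gave 0.90 (SE 0.33, edgeR adjusted p = 0.0290), not called, with overlapping ranges. The means were 2.17 FPM in NRK-49F and 2.04 FPM in NRK-52E at pH 7.4, then 1.15 FPM in NRK-49F and 0.628 FPM in NRK-52E at pH 6.0. The highest neighbours overlapped, and so did the lowest.

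Bsg, the chaperone of both transporters, had 8584 to 89782 fragments per library. NRK-52E had 3577, 3494, 3342 and 3924 FPM at pH 7.4 and 3624, 2885, 3332 and 4221 FPM at pH 6.0. NRK-49F had 958.5, 957.5, 1118 and 920.1 FPM at pH 7.4 and 528.0, 569.3, 630.8 and 527.3 FPM at pH 6.0. The NRK-52E groups overlapped over most of their range, whereas the NRK-49F groups were separated. In NRK-52E the log2 fold change was −0.04 (SE 0.13, edgeR adjusted p = 0.781). Bsg fell in NRK-49F, with a log2 fold change of −0.83 (SE 0.10, edgeR adjusted p = 4.40e-05), a 1.77-fold lower level. Within number 21 the NRK-49F value was −0.84 and no longer called with 2 libraries against 2, and within number 20 it was −0.80 and called. The interaction was −0.77 (SE 0.17, edgeR adjusted p = 9.79e-04). NRK-49F had less Bsg than NRK-52E, by a log2 fold change of −1.94 at pH 7.4 (SE 0.10, edgeR adjusted p = 7.92e-09) and −2.63 at pH 6.0 (SE 0.15, edgeR adjusted p = 1.62e-08), or 3.84-fold and 6.18-fold lower. The order was NRK-52E at pH 7.4 (3584 FPM), NRK-52E at pH 6.0 (3516), NRK-49F at pH 7.4 (988.6) and NRK-49F at pH 6.0 (563.8), and only the NRK-52E groups did not differ beyond their spread.

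Slc16a1 and Bsg thus moved in opposite directions in NRK-49F. Slc16a1 FPM as a percentage of Bsg FPM was 11.47, 9.72, 5.51 and 7.83 in the NRK-49F libraries at pH 7.4 and 28.7, 26.6, 30.4 and 34.2 at pH 6.0. In NRK-52E the percentages were 11.7, 12.6, 12.9 and 11.6 at pH 7.4 and 8.05, 12.2, 10.2 and 6.47 at pH 6.0. The group means were 8.63% ± 2.56 and 29.96% ± 3.22 in NRK-49F and 12.2% ± 0.677 and 9.24% ± 2.5 in NRK-52E (SD, n = 4 each). All NRK-49F libraries at pH 6.0 lay above the 12 others, the lines did not overlap at pH 7.4, and NRK-52E at pH 6.0 overlapped both groups at pH 7.4. Gene lengths were not used, so the ratio can be read between groups only, and levels of different genes were not compared.

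**Figure D1:**
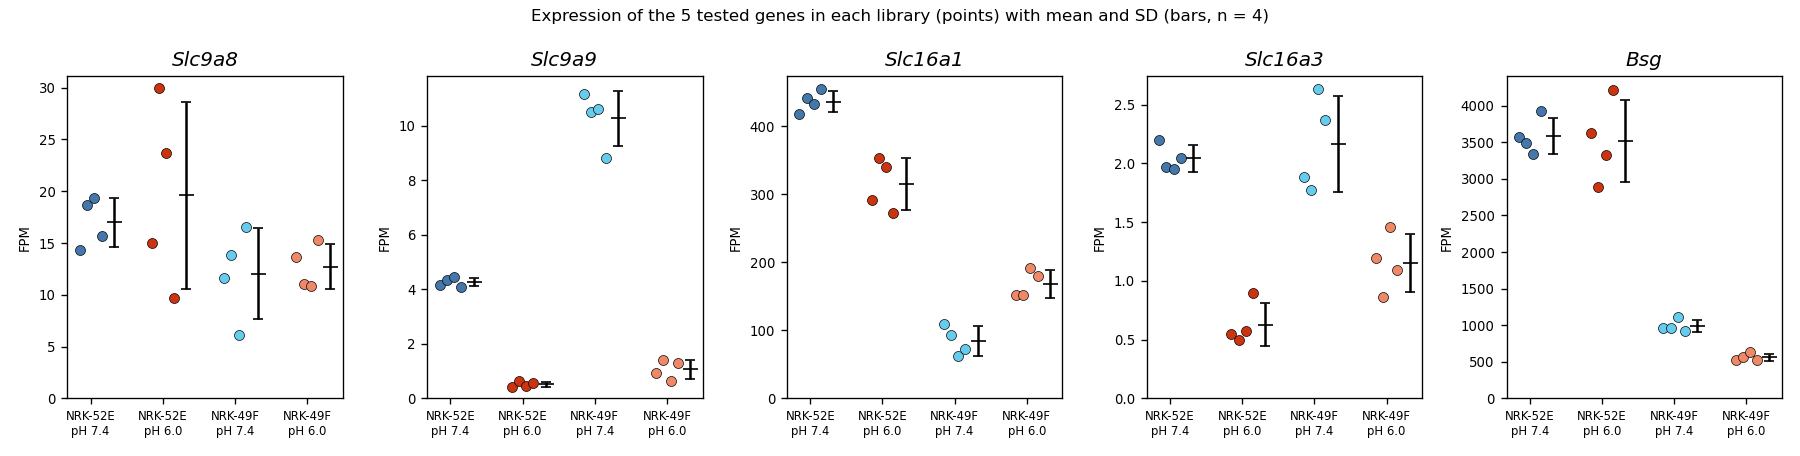
Expression in FPM of the 5 tested genes in each library (points) with the group mean and SD (bars, n = 4). Slc16a1 fell from a mean of 436.4 to 314.6 FPM in NRK-52E and rose from 84.2 to 168.7 FPM in NRK-49F, while Slc9a9 was low in both lines at pH 6.0.

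Of the 5 members tested, 3 were called at pH 6.0 in NRK-52E, all of them lower (Slc9a9, Slc16a1 and Slc16a3), where 56.7% of all 13735 tested genes were called, 28.2% higher and 28.5% lower. In NRK-49F 3 were called, Slc16a1 higher and Slc9a9 and Bsg lower, against 37.8% of 13339 genes, 18.4% higher and 19.4% lower. Between the lines at pH 7.4, 3 were called, Slc9a9 higher in NRK-49F and Slc16a1 and Bsg lower, against 66.6% of 14026 genes, 33.3% higher and 33.3% lower. At pH 6.0, 2 were called, Slc16a1 and Bsg, both lower in NRK-49F, against 59.8% of 13796 genes, 31.3% higher and 28.6% lower. The interaction was called for 2, Slc16a1 with a positive and Bsg with a negative value, against 36.9% of 14679 genes, 17.5% positive and 19.3% negative. With 5 genes tested, these counts do not set the members apart from the other genes. The members' median log2 fold change was −0.49, −0.83, −0.57, −0.60 and −0.11 in these 5 comparisons, and that of all tested genes was 0.0014, −0.0029, −0.0289, 0.0274 and 0.0135. Scaling by total counts alone moved the median of all genes to −0.21, 0.04, −0.34, −0.12 and 0.25. Under that scaling the members' directions turned only for Slc9a8 in NRK-52E (−0.02), for Slc16a3 between the lines at pH 7.4 (−0.31) and for the Slc9a8 interaction (0.11). It also moved the share of higher values among all called genes from 49.7% to 40.7% in NRK-52E, from 48.7% to 52.9% in NRK-49F, from 4670 of 9338 genes to 3330 of 8273 (40.3%) between the lines at pH 7.4, from 52.3% to 46.3% at pH 6.0 and from 47.6% to 62.2% for the interaction.

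The other genes of the same transport and lactate pathways were described in lists, 45 genes in all. In NRK-52E 19 of the 29 tested were called at pH 6.0, 9 higher and 10 lower, and in NRK-49F 17 of 31 were called, 8 higher and 9 lower. Between the lines 26 of 32 were called at pH 7.4, 15 higher and 11 lower in NRK-49F, and 24 of 33 at pH 6.0, 13 higher and 11 lower. The interaction was called for 16 of 33, 8 positive and 8 negative. These counts are 65.5%, 54.8%, 81.2%, 72.7% and 48.5% of the list genes tested, against 56.7%, 37.8%, 66.6%, 59.8% and 36.9% of all genes tested in the same comparisons. The lists were chosen with earlier results of these data known, so the higher shares do not show that these genes stand out. No test of the lists as sets was made. The same shares of all genes apply to the counts of each list given below. The medians over the lists were −0.15, −0.19, 0.19, 0.10 and 0.11 in the same order of comparisons.

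Of the other sodium-proton exchangers, Slc9a5 and Slc9b1 were tested. Slc9b1, which encodes a cation-proton antiporter of the NHA type, differed between the lines. It averaged 3.64 FPM in NRK-52E and 0.0341 FPM in NRK-49F at pH 7.4, with a log2 fold change of −6.44 (SE 0.41, edgeR adjusted p = 5.81e-08), and at pH 6.0 the log2 fold change was −5.57 (SE 0.53, edgeR adjusted p = 1.38e-06). The list medians were −3.36 and −2.73, with 1 of 2 genes called at each pH. The Slc9b1 values rest on 0 to 5 fragments per library in NRK-49F, and became −7.25 at pH 7.4 and −6.64 at pH 6.0 without replicate 4 of NRK-49F. Slc9a5, which encodes an exchanger best known from neurons, was not called between the lines, with −0.28 (SE 0.23, edgeR adjusted p = 0.296) at pH 7.4 and 0.10 (SE 0.25, edgeR adjusted p = 0.734) at pH 6.0. The pH effect of Slc9a5 was 0.03 (SE 0.21, edgeR adjusted p = 0.920) in NRK-52E and 0.31 (SE 0.26, edgeR adjusted p = 0.328) in NRK-49F, and that of Slc9b1 in NRK-52E was −0.06 (SE 0.22, edgeR adjusted p = 0.832), none of them called. Both genes were named after their values were seen. The interaction was not called for Slc9a5, with 0.30 (SE 0.34, edgeR adjusted p = 0.489), nor for Slc9b1, with 0.82 (SE 0.94, edgeR adjusted p = 0.490). Slc9a4 and Slc9c1 had no fragment in any library, and Slc9c2 was not analysed here.

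Partners and regulators of the exchangers include the scaffold proteins NHERF1 (Slc9a3r1) and PDZK1 (Pdzk1), ezrin (Ezr), which ties them to the cytoskeleton, and the calcineurin-like exchanger subunit CHP1 (Chp1). In NRK-52E 3 of 6 tested were called, all lower, with a list median of −0.58. Slc9a3r1 fell with a log2 fold change of −1.45 (SE 0.10, edgeR adjusted p = 7.15e-07), Pdzk1 with −1.20 (SE 0.19, edgeR adjusted p = 2.53e-04) and Ezr with −0.85 (SE 0.08, edgeR adjusted p = 3.97e-06). With 2 libraries against 2, the Pdzk1 call was lost within number 21 (−1.06) and number 22 (−1.36). In NRK-49F 2 of 7 were higher and 1 lower, with a median of −0.19. Slc9a3r1 fell there too, with −1.51 (SE 0.13, edgeR adjusted p = 2.37e-06), while Chp1 rose with 0.60 (SE 0.10, edgeR adjusted p = 3.45e-04) and Ezr with 0.37 (SE 0.10, edgeR adjusted p = 0.00871). The Ezr call in NRK-49F was lost when any library was left out except replicate 4 at pH 6.0: it was 0.35, 0.38, 0.37 and 0.40 without replicates 1 to 4 at pH 7.4, and 0.33, 0.34 and 0.38 without replicates 1 to 3 at pH 6.0. Within number 21 it was 0.22 and not called. Interaction values were called for 2 of 7, both positive, with a median of 0.52, namely Ezr at 1.23 (SE 0.13, edgeR adjusted p = 4.05e-07) and Chp1 at 0.81 (SE 0.13, edgeR adjusted p = 4.50e-05).

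Between the lines all 7 partners tested were called at pH 7.4, 2 higher and 5 lower in NRK-49F, with a median of −0.90, and 6 of 7 at pH 6.0, 2 higher and 4 lower, with a median of −0.42, where 66.6% and 59.8% of all tested genes were called. At pH 6.0 the count includes Slc9a3r2, named after its values were seen, at −0.42 (SE 0.12, edgeR adjusted p = 0.00899). Its call was lost without replicate 1 (−0.43), 3 (−0.46) or 4 (−0.36) of NRK-52E, without replicate 1 (−0.46), 2 (−0.42), 3 (−0.44) or 4 (−0.32) of NRK-49F, and without a filter on low counts (−0.42). The largest lower levels at pH 7.4 were those of Ezr at −2.80 (SE 0.07, edgeR adjusted p = 3.59e-11), Chp1 at −1.91 (SE 0.09, edgeR adjusted p = 3.73e-09) and Slc9a3r1 at −1.56 (SE 0.08, edgeR adjusted p = 4.88e-09). The same genes were lower at pH 6.0, with Slc9a3r1 at −1.53 (SE 0.15, edgeR adjusted p = 1.69e-06), Ezr at −1.48 (SE 0.11, edgeR adjusted p = 1.85e-07) and Chp1 at −1.01 (SE 0.10, edgeR adjusted p = 2.00e-06). The kinase gene Sgk1 was higher in NRK-49F, with 2.81 at both pH 7.4 (SE 0.11, edgeR adjusted p = 8.10e-10) and pH 6.0 (SE 0.16, edgeR adjusted p = 1.39e-08). Tesc, which encodes the calcium-binding protein tescalcin, was higher with 2.98 (SE 0.45, edgeR adjusted p = 8.77e-05) and 4.23 (SE 0.75, edgeR adjusted p = 2.71e-04), the latter 5.29 without replicate 3 of NRK-52E, whose libraries held 0 to 11 fragments.

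Of the lists, that of the other SLC16 genes held the largest change at pH 6.0 in each line. All 3 tested in NRK-52E fell, with a median of −4.03. Slc16a11, which encodes the monocarboxylate carrier MCT11, fell from a mean of 10.1 to 0.444 FPM, with a log2 fold change of −4.50 (SE 0.24, edgeR adjusted p = 1.63e-07). Slc16a13 fell from 19.1 to 1.16 FPM, with −4.03 (SE 0.28, edgeR adjusted p = 6.12e-07), and Slc16a4 with −2.0 (SE 0.21, edgeR adjusted p = 1.10e-05). The Slc16a4 call was lost within number 22 (−1.77), with 2 libraries against 2. In NRK-49F 1 of 6 tested was higher and 2 were lower, with a median of −0.48, and within number 21 only 1 of these 3 calls was kept and within number 20 only 2. Slc16a14 fell with −2.72 (SE 0.31, edgeR adjusted p = 1.82e-05) and Slc16a13 with −0.71 (SE 0.12, edgeR adjusted p = 4.48e-04), the latter not called within number 21 (−0.76). Slc16a6 rose with 2.28 (SE 0.56, edgeR adjusted p = 0.00474), from 0 to 0.286 FPM per library at pH 7.4 and 0.532 to 1.55 FPM at pH 6.0. The Slc16a6 call was lost without replicate 2 (2.46) or 4 (2.30) at pH 7.4 or replicate 1 (1.96) or 3 (2.25) at pH 6.0, and within number 20 (2.11) and number 21 (2.65). Slc16a7, which encodes the pyruvate carrier MCT2, was not called in NRK-49F, with −0.56 (SE 0.27, edgeR adjusted p = 0.0999).

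The interaction was called for 3 of the 6 other SLC16 genes tested, all positive, with a median of 1.04. Slc16a11 gave 4.11 (SE 0.40, edgeR adjusted p = 2.14e-07), Slc16a13 gave 3.33 (SE 0.27, edgeR adjusted p = 3.07e-08) and Slc16a4 gave 1.69 (SE 0.26, edgeR adjusted p = 3.52e-05). These genes had the more negative pH effect in NRK-52E. Between the lines at pH 7.4, 3 of 5 tested were higher in NRK-49F and 1 lower, with a median of 1.26, and at pH 6.0 5 of 6 were higher, with a median of 4.36. Slc16a7 was higher at both pH values, with 4.74 (SE 0.47, edgeR adjusted p = 2.61e-06) and 4.81 (SE 0.47, edgeR adjusted p = 1.60e-06), from means of 0.12 and 0.0853 FPM in NRK-52E to 3.60 and 2.42 FPM in NRK-49F. With 0 to 7 fragments per NRK-52E library at pH 7.4, that value became 5.69 without replicate 3 of NRK-52E. At pH 6.0 those libraries held 2, 2, 2 and 1 fragments, all within the range that a count of 0 allows, so the size of that difference is uncertain. Slc16a13 was higher with 1.26 (SE 0.11, edgeR adjusted p = 1.11e-06) at pH 7.4 and 4.67 (SE 0.28, edgeR adjusted p = 2.21e-08) at pH 6.0. Slc16a14 had 1 fragment in NRK-52E at each pH and means of 10.9 and 1.61 FPM in NRK-49F. The only lower gene was Slc16a4 at pH 7.4, with −0.80 (SE 0.10, edgeR adjusted p = 2.10e-05). At pH 6.0 Slc16a4 was higher, with 0.97 (SE 0.24, edgeR adjusted p = 0.00282), a call lost without replicate 1 (0.89), 2 (0.85) or 3 (0.84) of NRK-52E or replicate 4 of NRK-49F (0.85). Slc16a10 had no fragment in any library, and Slc16a9 was not analysed here.

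Embigin (Emb) and neuroplastin (Nptn) belong to the same chaperone family as basigin. In NRK-52E both of the 2 tested were lower, with a median of −0.66. Nptn fell with −0.77 (SE 0.09, edgeR adjusted p = 2.48e-05) and Emb with −0.56 (SE 0.16, edgeR adjusted p = 0.00918). The Emb call was lost without replicate 1 (−0.57), 2 (−0.54) or 4 (−0.55) at pH 7.4 or replicate 1 (−0.53), 2 (−0.45) or 3 (−0.57) at pH 6.0. Within number 22 neither call was kept, with −0.72 for Nptn and −0.29 for Emb. In NRK-49F 1 of 2 was called, Nptn with −0.67 (SE 0.12, edgeR adjusted p = 6.66e-04), next to Emb with −0.25 (SE 0.08, edgeR adjusted p = 0.0176) and a median of −0.46, and Nptn was not called within number 21 (−0.50). Neither interaction was called, with 0.11 (SE 0.16, edgeR adjusted p = 0.566) for Nptn and 0.32 (SE 0.18, edgeR adjusted p = 0.136) for Emb and a median of 0.22. Nptn was higher in NRK-49F at pH 7.4 (0.81, SE 0.07, edgeR adjusted p = 7.78e-07) and at pH 6.0 (1.0, SE 0.14, edgeR adjusted p = 3.32e-05). Emb was not called between the lines, with −0.11 (SE 0.08, edgeR adjusted p = 0.251) and 0.29 (SE 0.15, edgeR adjusted p = 0.0976), and the medians were 0.35 and 0.65. Without replicate 4 of NRK-52E at pH 6.0, both genes were called between the lines at that pH. Of the sodium-coupled monocarboxylate transporters, Slc5a12 had no fragment in any library, and Slc5a8 had too few to be tested.

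**Figure D2:**
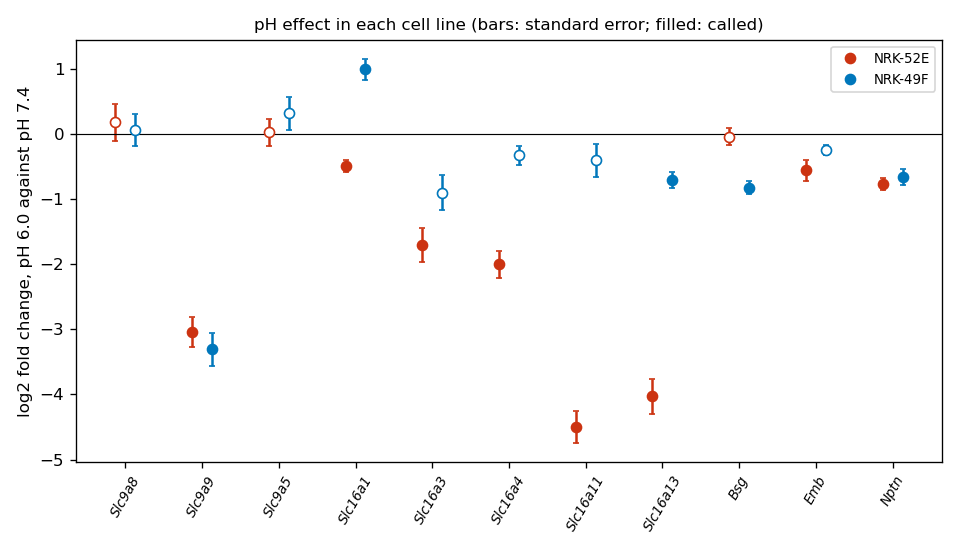
log2 fold change at pH 6.0 against pH 7.4 in each cell line for the tested members and related genes, with SE (bars) and filled points for called genes. Slc16a1 had a called rise in NRK-49F (0.99) and a called fall in NRK-52E (−0.49).

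Genes that make or use lactate and pyruvate were partly higher and partly lower. In NRK-52E 6 of 11 tested were higher and 2 lower, with a median of 0.48, and within number 22, with 2 libraries against 2, the 8 calls fell to 2. The rises were led by Pdk4 and Pdhb, which encode a kinase and a subunit of pyruvate dehydrogenase, with 2.07 (SE 0.31, edgeR adjusted p = 1.52e-04) and 1.22 (SE 0.09, edgeR adjusted p = 1.21e-06). Mpc2, of the mitochondrial pyruvate carrier, rose with 0.83 (SE 0.13, edgeR adjusted p = 2.41e-04), and the kinase genes Pdk2 and Pdk3 fell with −1.80 (SE 0.13, edgeR adjusted p = 1.04e-06) and −0.77 (SE 0.19, edgeR adjusted p = 0.00345). The Pdk3 call was lost without replicate 1 (−0.75) or 3 (−0.71) at pH 6.0. Within number 22 Pdk4 (1.69), Mpc2 (0.93) and Pdk3 (−0.59) were not called. The count also includes Pdk1, named after its values were seen, with 0.48 (SE 0.13, edgeR adjusted p = 0.00576). Its call was lost without replicate 1 (0.47), 2 (0.46), 3 (0.45) or 4 (0.48) at pH 7.4 or replicate 1 (0.46) or 2 (0.47) at pH 6.0, within number 21 (0.50) and 22 (0.44), with scaling by total counts (0.27) and without a filter on low counts (0.45). In NRK-49F 3 of 10 tested were higher and 3 lower, with a median of −0.04, and within number 21 the 6 calls fell to 1. Pdk1 rose with 1.13 (SE 0.12, edgeR adjusted p = 9.10e-06), Pdha1 with 0.67 (SE 0.10, edgeR adjusted p = 1.35e-04) and Pdhb with 0.53 (SE 0.10, edgeR adjusted p = 6.08e-04). Ldhb, which encodes the heart-type subunit of lactate dehydrogenase, fell with −0.75 (SE 0.11, edgeR adjusted p = 1.58e-04), Mpc1 with −0.74 (SE 0.11, edgeR adjusted p = 1.28e-04) and Mpc2 with −0.51 (SE 0.13, edgeR adjusted p = 0.00490). The Mpc2 call was lost without replicate 1 (−0.46), 2 (−0.52) or 3 (−0.53) at pH 6.0. Calls lost within number 21 were those of Ldhb (−0.83), Mpc1 (−0.72), Mpc2 (−0.58), Pdha1 (0.69) and Pdhb (0.50). Ldha, the muscle-type subunit, was not called in either line, with −0.27 (SE 0.13, edgeR adjusted p = 0.0735) in NRK-52E and −0.04 (SE 0.12, edgeR adjusted p = 0.799) in NRK-49F, and its interaction was 0.25 (SE 0.18, edgeR adjusted p = 0.255).

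Mpc2 and Mpc1 had negative interactions of −1.32 (SE 0.19, edgeR adjusted p = 1.46e-05) and −1.11 (SE 0.19, edgeR adjusted p = 1.07e-04). In this list 3 interactions were called positive and 4 negative among 11 tested, with a median of −0.58. The positive values were those of Pdk2 at 1.77 (SE 0.20, edgeR adjusted p = 1.44e-06), Pdk3 at 1.01 (SE 0.24, edgeR adjusted p = 0.00227) and Pdk1 at 0.66 (SE 0.16, edgeR adjusted p = 0.00253). Ldhd, which encodes the dehydrogenase of D-lactate, gave −1.03 (SE 0.16, edgeR adjusted p = 5.24e-05). The lines differed in 10 of 11 genes at pH 7.4, 6 higher and 4 lower in NRK-49F with a median of 0.51. At pH 6.0 they differed in 8 of 11, 4 higher and 4 lower with a median of 0.0036. Of all tested genes, 66.6% and 59.8% were called between the lines at pH 7.4 and pH 6.0. The count at pH 6.0 includes Mpc2 at −0.40 (SE 0.12, edgeR adjusted p = 0.00939), a call lost without replicate 1 (−0.40) or 4 (−0.32) of NRK-52E or replicate 1 (−0.35), 2 (−0.40), 3 (−0.42) or 4 (−0.41) of NRK-49F, without a filter on low counts (−0.41) and with all 16 libraries fitted together (−0.40). That at pH 7.4 includes Pdk1 at 0.51 (SE 0.12, edgeR adjusted p = 0.00203), which was not called with scaling by total counts (0.20). Ldhb was higher in NRK-49F at both, with 3.67 (SE 0.17, edgeR adjusted p = 4.22e-09) and 3.17 (SE 0.20, edgeR adjusted p = 3.93e-08), and Pdha1 was lower, with −1.83 (SE 0.08, edgeR adjusted p = 3.02e-09) and −1.86 (SE 0.11, edgeR adjusted p = 1.33e-08). At pH 7.4 Ldhd and Mpc2 were higher in NRK-49F, with 0.95 (SE 0.11, edgeR adjusted p = 7.99e-06) and 0.83 (SE 0.14, edgeR adjusted p = 1.63e-04), and Pdk3 was lower, with −0.96 (SE 0.09, edgeR adjusted p = 1.89e-06). At pH 6.0 the kinase genes Pdk1 and Pdk2 were higher, with 1.25 (SE 0.12, edgeR adjusted p = 1.94e-06) and 1.08 (SE 0.17, edgeR adjusted p = 1.31e-04), and Pdhb was lower, with −0.71 (SE 0.10, edgeR adjusted p = 3.64e-05). Pdk4 averaged 4.54 FPM in NRK-52E and 0.0593 FPM in NRK-49F at pH 7.4, with −6.38 (SE 0.52, edgeR adjusted p = 5.11e-07), and at pH 6.0 it had no fragment in NRK-49F, at least 148-fold lower. The NRK-49F libraries at pH 7.4 held 3, 0, 1 and 0 Pdk4 fragments, within the range that a count of 0 allows, and the value became −7.72 without replicate 1 of NRK-49F. Ldha was higher in NRK-49F with 0.53 (SE 0.11, edgeR adjusted p = 0.00104) at pH 7.4, a call lost with scaling by total counts (0.22), and with 0.86 (SE 0.13, edgeR adjusted p = 1.00e-04) at pH 6.0.

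Basigin binds CD98 (Slc3a2 and Slc7a5), CD44 and the cyclophilins (Ppia and Ppib). In NRK-52E 3 of 5 were called, all higher, with a median of 1.72. Slc3a2 rose from a mean of 119.2 to 1492 FPM, with a log2 fold change of 3.63 (SE 0.19, edgeR adjusted p = 1.28e-07), Cd44 rose with 2.13 (SE 0.19, edgeR adjusted p = 2.96e-06) and Slc7a5 with 1.72 (SE 0.17, edgeR adjusted p = 7.49e-06). In NRK-49F 2 of 5 were higher and 2 lower, with a median of 0.26. Cd44 rose with 0.97 (SE 0.09, edgeR adjusted p = 5.51e-06) and Slc3a2 with 0.74 (SE 0.12, edgeR adjusted p = 2.15e-04), while Ppib fell with −0.58 (SE 0.14, edgeR adjusted p = 0.00335) and Ppia with −0.56 (SE 0.11, edgeR adjusted p = 7.91e-04). The Ppib call was lost without replicate 1 (−0.52) or 3 (−0.58) at pH 6.0. Within number 21 the 4 calls fell to 1, and Slc3a2 (0.50), Ppia (−0.63) and Ppib (−0.69) were not called. Fragments that mapped to several places were counted, so Ppia and Ldha, which have many near-identical pseudogenes, are uncertain. The interaction was called for 4 of 5, all negative, with a median of −1.14, led by Slc3a2 at −2.87 (SE 0.22, edgeR adjusted p = 1.66e-08), Slc7a5 at −1.45 (SE 0.26, edgeR adjusted p = 1.69e-04) and Cd44 at −1.14 (SE 0.18, edgeR adjusted p = 5.65e-05). The fourth was Ppib at −0.77 (SE 0.21, edgeR adjusted p = 0.00533), and Ppia was not called, with −0.36 (SE 0.19, edgeR adjusted p = 0.133). The Ppib interaction was no longer called with scaling by total counts (−0.52), without replicate 2 (−0.74), 3 (−0.71) or 4 (−0.77) of NRK-52E at pH 7.4 or replicate 1 of NRK-52E at pH 6.0 (−0.65), or without replicate 3 of NRK-49F at pH 7.4 (−0.62) or replicate 1 of NRK-49F at pH 6.0 (−0.70). At pH 7.4 3 of 5 were higher in NRK-49F, with a median of 0.53. Cd44 differed by 5.78 (SE 0.11, edgeR adjusted p = 5.95e-12), Slc3a2 by 0.93 (SE 0.07, edgeR adjusted p = 4.03e-07) and Ppib by 0.53 (SE 0.13, edgeR adjusted p = 0.00344), the last not called without replicate 2 (0.50) or 3 (0.48) of NRK-52E or with scaling by total counts (0.22). At pH 6.0 Cd44 was higher with 4.72 (SE 0.16, edgeR adjusted p = 1.66e-10), and Slc3a2 and Slc7a5 were lower with −1.86 (SE 0.20, edgeR adjusted p = 3.35e-06) and −1.37 (SE 0.17, edgeR adjusted p = 1.64e-05), with a median of −0.16.

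Genes with the most similar profiles were found by Pearson's r of log2(FPM + 1) over the 16 libraries, among genes with a mean of at least 10 FPM. The libraries share cell line and pH groups, so these values rank genes and test nothing. Slc16a1 was most like Rprd1a (0.982), Ddhd2 (0.980) and Fzd6 (0.979), and Bsg was most like Pak1 (0.991), Tspan8 (0.990) and Klf15 (0.990). Slc9a9 was nearest to Scrn1 (0.993), Pdlim2 (0.977) and Pros1 (0.974), and Slc16a3 to Nfatc4 (0.966), Marcksl1 (0.966) and Egln2 (0.960). Slc9a8 had Snx29 (0.943), Arhgef17 (0.942) and Tsc1 (0.940). Above 0.9 there were 476 genes for Bsg and 21 for Slc9a8.

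Promoters were read from RefSeq annotation of the GRCr8 rat genome, which differs from the rn6 build used for the counts. Motifs were searched on both strands from 250 bases before to 50 bases after the annotated starts of all 8 members. Each member was counted once, also Slc9a2 with its 2 windows, whereas the shares of all were counted per promoter. The E-box CACGTG was found in 3 of 8, Slc9a3, Slc16a1 and Bsg, and in 6.42% of all 33469 promoters. The shorter ACGTG, the core of the hypoxia response element, which CACGTG contains, was found in 4 of 8 and in 19.3% of all. The antioxidant response element TGACNNNGC, where N is any base, was found in 1 of 8, Slc16a1, overlapping the E-box, and in 12.1% of all. The AP-1 site TGANTCA was found in 1 of 8, Slc16a3, and in 7.33% of all, and the amino acid response element TGATGNAAN in 1 of 8, Slc9a9, and in 3.97% of all. The windows of Slc9a3, Slc9a7, Slc9a8, Slc9a9 and Slc16a1, and 1 of the 2 windows of Slc9a2, lie inside the span of their own annotated genes. Shown are the 250 bases before the start of Bsg, on the minus strand of chr7:10651006-10651255, and of Slc16a3, on the plus strand of chr10:106712078-106712327. They are examples of an E-box and an AP-1 match. In the fits of single lines, Bsg was called with pH in NRK-49F only and Slc16a3 in NRK-52E only. Slc9a9, called in both lines, is not shown. For Slc16a1, on the plus strand, with its window at chr2:194812410-194812659, only 30 bases around the E-box are shown. Capitals mark the motif matches.
Bsg: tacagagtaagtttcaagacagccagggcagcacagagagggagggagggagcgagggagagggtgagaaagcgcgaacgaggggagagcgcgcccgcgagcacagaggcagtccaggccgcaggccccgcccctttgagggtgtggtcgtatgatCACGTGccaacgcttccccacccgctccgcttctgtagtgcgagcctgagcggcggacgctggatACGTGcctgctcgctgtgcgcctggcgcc
Slc16a3: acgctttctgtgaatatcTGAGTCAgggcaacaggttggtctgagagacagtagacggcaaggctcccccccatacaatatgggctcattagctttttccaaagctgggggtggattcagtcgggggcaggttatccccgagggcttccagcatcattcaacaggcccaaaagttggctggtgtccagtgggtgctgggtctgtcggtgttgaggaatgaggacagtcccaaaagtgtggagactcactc
Slc16a1: ccgcagcGCCTAGTCACGTGgcgggaaggg
Relative to the start, the E-box lay at position −94 in Bsg and −216 in Slc16a1, and the AP-1 match at position −232 in Slc16a3. A match describes the sequence only, and binding was not measured.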

How the data were processed

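Poly(A)-enriched RNA had been sequenced in paired reads of 2 × 150 bases, and the authors deposited raw fragment counts per Ensembl gene of the rat build rn6 for 16 libraries. The labels name HISAT2 2.1.0 and featureCounts, whereas the methods of the study name tophat2 with featureCounts, counting multi-mapping fragments. The counting options listed by the study include no strand setting, so overlapping and antisense genes cannot be told apart. The labels write the pH as 7 and 6, and the protocol gives 7.4 and 6.0.

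Counts were analysed in R 4.3.3 with edgeR 4.0.16 (filterByExpr, trimmed mean of M values, quasi-likelihood test) and DESeq2 1.42.0 (median-of-ratios size factors, Wald test), with 1 fit for each pair of groups and a fit of all 16 libraries for the interaction. A gene was called when its Benjamini-Hochberg adjusted p over all tested genes was under 0.01 in both. Fold changes and standard errors are those of edgeR. The members were also compared by exact two-sided permutation of log2(FPM + 1) in Python 3.11.15 with scipy 1.17.1. The scripts were tested on simulated data. Depth ranged from 16201084 to 34784862 fragments. With depth and the scaling factor of each library, 3 fragments equal 0.0938 to 0.199 FPM.

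Named were all 8 members, up to 3 of the largest called rises and falls for each list and comparison, Ldha, Slc16a7, Emb and Nptn, and the 3 most similar genes for each member. Outside this rule, some values of Slc9a5, Slc9b1, Slc9a3r2, Slc16a4, Pdk1, Pdhb, Mpc2, Ppia and Ppib were added after they were seen. Results of some listed genes are not reported here. The members and lists were chosen with earlier results of these data known. Alternatives changed the scaling, count filter, tool, threshold, libraries in the fit and the handling of the column names' second number, and left out each library in turn. No library was left out otherwise.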

Additional observations from a re-analysis of the deposited data

Results flagged for a closer look

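The results below met the criterion that the pH effect differed between the cell lines by the test of the interaction, called in both edgeR and DESeq2, among the 8 members and the 45 related genes. Each value is the log2 fold change at pH 6.0 in NRK-49F minus that in NRK-52E. Among the members, it was 1.492 for Slc16a1, which rose in NRK-49F and fell in NRK-52E, and −0.767 for Bsg, which fell in NRK-49F only by the test of each line. Of the exchanger partners, it was 1.234 for Ezr and 0.813 for Chp1. The SLC16 family gave 1.687 for Slc16a4, 4.106 for Slc16a11 and 3.327 for Slc16a13. Genes of lactate and pyruvate gave 0.658 for Pdk1, 1.766 for Pdk2 and 1.012 for Pdk3, and −1.106 for Mpc1, −1.319 for Mpc2, −0.673 for Pdhb and −1.03 for Ldhd. Basigin partners gave −2.872 for Slc3a2, −1.143 for Cd44, −1.45 for Slc7a5 and −0.769 for Ppib. The Ppib call was lost with scaling by total counts (−0.522), and without replicate 2 (−0.736), 3 (−0.707) or 4 (−0.7705) of NRK-52E at pH 7.4, replicate 1 of NRK-52E at pH 6.0 (−0.645), replicate 3 of NRK-49F at pH 7.4 (−0.623) or replicate 1 of NRK-49F at pH 6.0 (−0.704). In the 20 groups of values of the tested members, no library lay far from the others, where chance would give 1.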

How the results depend on the processing

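Of 468 alternative values for the members' fold changes, 438 kept direction and call, 5 lost a call, 6 gained one and 19 changed sign. The 5 were those of Slc16a1 and Slc16a3 in NRK-52E within numbers 21 and 22 and of Bsg in NRK-49F within number 21. Of 1763 values for called related genes, 1673 kept the call, 90 lost it and none changed sign. Of 40 alternative group means of the members' levels, 8 moved by more than 1 SD. In NRK-52E the members called fell from 3 to 1 within number 21 and to 1 within number 22, where by construction 2 libraries met 2. With the second number as a covariate, in a fit that splits no libraries off, 3 were called. All changes of sign were in values not called, and the cause was not tested. Slc9a8 in NRK-52E became −0.0159 with total counts and −0.0946 within number 22, and ranged from −0.11 to 0.40 with a library left out. Bsg in NRK-52E became 0.0394 within number 22 and ranged from −0.15 to 0.0285 with a library left out. Slc9a8 in NRK-49F became −0.0423 within number 20 and ranged from −0.15 to 0.24. Slc16a3 between the lines at pH 7.4 became −0.0043 with median-of-ratios factors, −0.3063 with total counts, −0.0010 with a filter of 1 CPM and −0.0063 in DESeq2, and ranged from −0.094 to 0.0908. The Slc9a8 interaction became 0.1089 with total counts and ranged from −0.34 to 0.16. Calls gained were those of Slc16a3 in NRK-49F and Slc9a9 between the lines at pH 6.0, each at an adjusted p under 0.05 and with all 16 libraries fitted, and of Slc9a8 between the lines at pH 7.4 at 0.05 and at pH 6.0 without replicate 4 of NRK-52E. No paired analysis was possible because the labels do not say which NRK-52E and NRK-49F libraries shared a well. Low counts limit Slc9a9 at pH 6.0 and Slc16a3 throughout, and the meaning of the second number in the column names was not given.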
